A study of Homo sapiens with 12 samples.

Results

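Compound 1 (EPZ004777), an inhibitor of the histone methyltransferase DOT1L, was compared with vehicle in MDA-MB231 cells, a triple-negative, mesenchymal human breast cancer line. The members were the 4 arrays whose sample titles name compound 1 and the 2 arrays titled control, 6 of the 12 Illumina HT-12 v4 arrays of the series. The control arrays came from cells given 0.1% DMSO for 14 days, and the compound 1 arrays from cells given 1 μM (n = 2) or 5 μM (n = 2) for 14 days. The other 6 arrays held compound 2 at 2 and 10 μM for 14 days and siRNA-1 against DOT1L for 7 days. The cells of each compound condition were plated in duplicate wells, named biological replicates by the labels, so p-values measure the spread between such wells. All groups are 1 cell line, and the DMSO content of the compound 1 wells was not given in the sources used here.

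DOT1L places methyl groups on lysine 79 of histone H3, a mark found over the bodies of transcribed genes. It has no SET domain, unlike most lysine methyltransferases, and its inhibitors compete with the methyl donor S-adenosylmethionine. The best studied setting is leukemia with MLL fusions, where DOT1L keeps HOXA genes and MEIS1 active. The arrays addressed which genes change in breast cancer cells when the enzyme is inhibited for a long time.

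Large rises outnumbered large falls with compound 1, and the largest fitted rises were in ABCA1, CEMIP, CST1 and SERPINA3. At an adjusted p below 0.05 (limma, Benjamini-Hochberg), 1264 of 17922 probes differed between the 4 compound 1 arrays and the 2 control arrays (7.05%), of which 675 were higher (3.77%) and 589 lower (3.29%). Of the called probes, 109 were higher by over 2-fold and 7 lower by over 2-fold. By gene, with the brightest tested probe standing for each of 10777 genes, 851 were called (7.9%), 520 higher (4.83%) and 331 lower (3.07%). These gene shares are the background for every list count below. The split between directions depended on the centring: 53.4% of called probes were higher as reported here, against 87.5% (1129 higher, 162 lower) when arrays were centred on the median of all probes, which moved the median of all tested probes from -0.06 to 0.05 on the log2 scale. It was 62.6% with quantile normalization, 65.0% without background correction and 82.7% with the authors' series matrix values. The 4 compound 1 arrays lay above both control arrays for 12.2% of the tested probes and below both for 21.2%. Directions given below are relative to the median of the brighter probes, those detected on every array.

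The contrast gave each control array 50% of the control weight and each compound 1 array 25% of the compound weight, so a single control well counted as much as both wells of a dose. The control arrays correlated with each other at r = 0.991 over the tested probes. Control replicate 1 correlated with the compound 1 arrays at 0.986 to 0.989, and control replicate 2 at 0.980 to 0.984. Control replicate 2 was thus farther from the compound 1 arrays than control replicate 1 was. Of the 1264 called probes, 1019 (80.6%) had the larger difference against control replicate 2, beside 59.9% of all tested probes. No called probe changed sign between the 2 control arrays. The called higher probes had a median log2 difference of 0.53 against control replicate 1 and 0.83 against control replicate 2, and the called lower probes -0.47 and -0.61. With control replicate 1 as the only control, 136 probes were called (0.759%; 108 higher, 28 lower), and with control replicate 2 as the only control, 1667 (9.3%; 939 higher, 728 lower). In these fits the lone control array was assumed to vary like the arrays of the other groups. Counts of list members called against a single control array, given below, stand beside these unequal shares of all probes. Against each control array alone, 119 probes were called the same way, 103 higher and 16 lower, and by gene 85 were higher and 8 lower. Leaving out a compound 1 array in place of a control array gave 527 to 820 calls: 527 and 537 without replicate 1 and 2 at 1 μM, and 575 and 820 without replicate 1 and 2 at 5 μM.

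**Figure D1:**
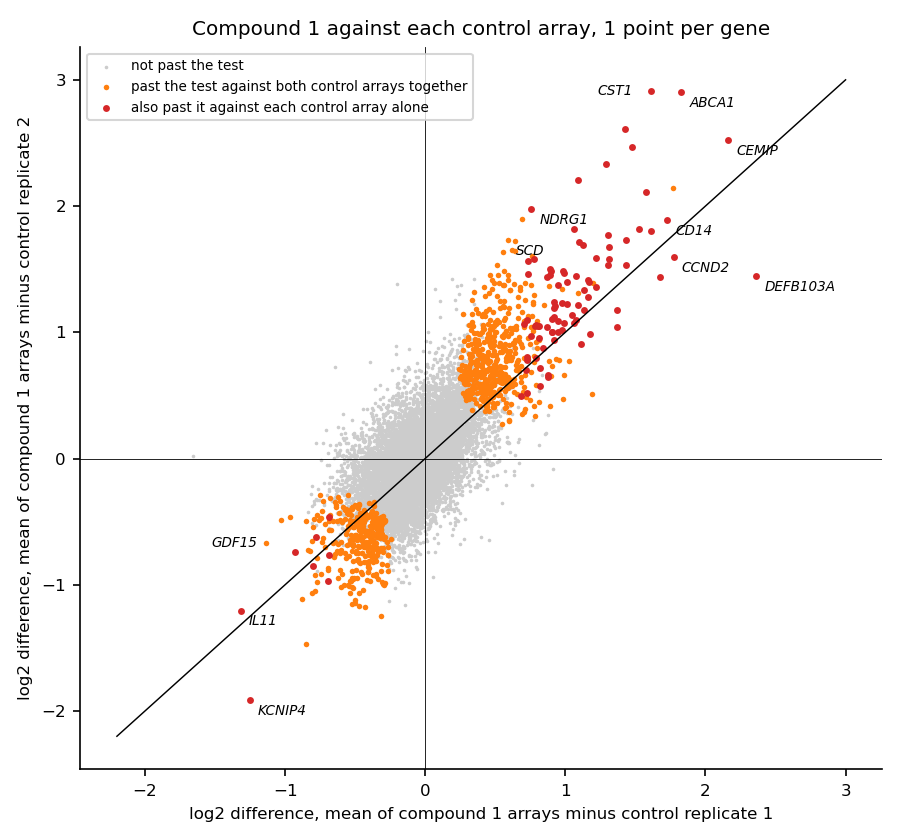
Each point is 1 gene; the x axis gives the mean log2 signal of the 4 compound 1 arrays minus control replicate 1, the y axis the same minus control replicate 2, and the black line marks equal differences. Orange points passed the test against both control arrays together (520 higher, 331 lower, red ones included) and the red points, 85 higher and 8 lower, also passed it against each control array alone; most called points lie farther from 0 on the y axis.

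**Figure D2:**
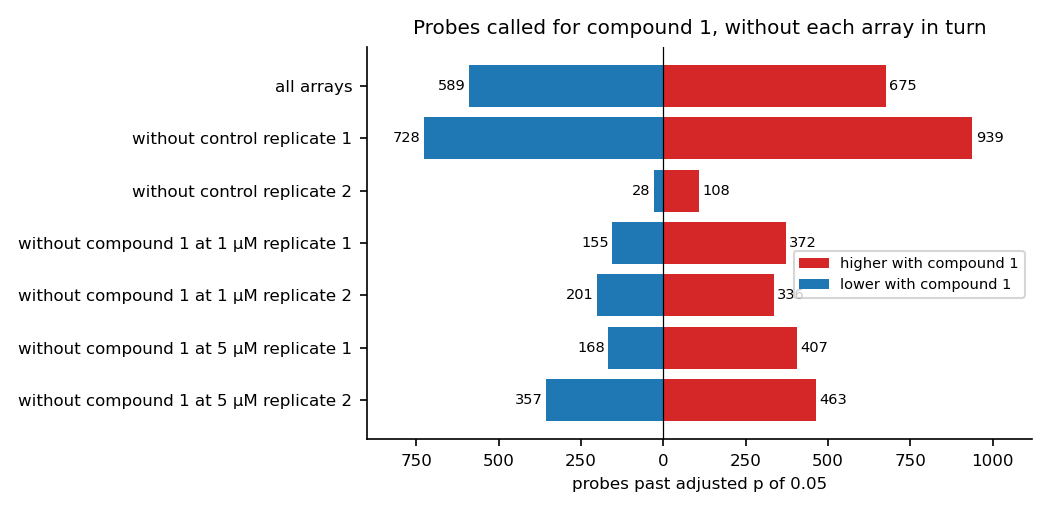
Bars give the number of probes past an adjusted p of 0.05 for compound 1 against control, higher to the right and lower to the left, with all arrays and without each of the 6 arrays in turn. The count fell to 108 higher and 28 lower without control replicate 2 and rose to 939 and 728 without control replicate 1.

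The genes with the largest rises code for a cholesterol exporter, a hyaluronan-degrading protein and inhibitors of proteases. Signals below are linear, corrected for background and scaled to a common median, with an offset of 16 that compresses the folds of dim genes. ABCA1, which moves cholesterol and phospholipid out of cells onto apolipoproteins, had a normalised signal of 464.9 and 220.6 on the control arrays, 1919 and 1818 at 1 μM and 1413 and 1496 at 5 μM. Its control arrays lay 1.08 apart on the log2 scale. Its log2 fold change was 2.36 (SE 0.27, adjusted p = 0.000801), or 1.83 against control replicate 1 and 2.90 against control replicate 2. CEMIP, which binds hyaluronan and promotes its breakdown, had 42.5 and 33.1 in the control, where it was not detected over background, and 168, 197, 213 and 185 with compound 1. That was a rise of at least 3.66-fold (log2 2.34, SE 0.15, adjusted p = 2.63e-05), and it passed the test against each control array alone.

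The cystatins followed as a group. CST1, CST2 and CST4 code for secreted type 2 cystatins of saliva, tears and other fluids that block cysteine proteases of the papain family. Their genes are neighbours on chromosome 20 and close in sequence, so a probe may also bind a paralog's transcript and their values are not independent. CST1 had a normalised signal of 1307 and 531 in the control and 3903, 3940, 3954 and 4201 with compound 1. Its log2 fold change was 2.26 (SE 0.26, adjusted p = 0.000812), 1.61 and 2.91 against the single control arrays. CST4 rose by 1.97 (SE 0.21) and CST2 by 1.81 (SE 0.22). Control replicate 2 was the lower control array for all 3, and the 3 genes stayed past the test against either control alone. CST3, cystatin C, rose by less (0.52, SE 0.13, adjusted p = 0.0378). CST6 on chromosome 11 and CST7, both chosen after their values were seen, did not pass, with -0.34 and 0.02.

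In the whole list of cystatins and cathepsins, 10 of 20 tested members were higher and none lower, beside 4.83% and 3.07% of all genes, and the median log2 fold change was 0.47 against -0.04 over all genes. Cathepsins are lysosomal proteases, and several are targets of cystatins. Those that rose included CTSB, by 0.77 (SE 0.14), CTSL by 0.77 (SE 0.16), CTSF by 0.72 (SE 0.15) and CTSD by 0.64 (SE 0.15). None of the cathepsins stayed past the test with control replicate 1 alone, where 3 members of the list were called, CST1, CST2 and CST4.

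SERPINA3 and SERPINA1, neighbouring genes on chromosome 14 for the acute-phase inhibitors of chymotrypsin-like proteases and of neutrophil elastase, both rose, SERPINA3 by 2.02 (SE 0.26; adjusted p = 0.0014) and SERPINA1 by 1.26 (SE 0.12; adjusted p = 0.000248). SERPINA3 had 86.4 and 38.0 in the control, detected on 1 of the 2 arrays, and 225, 278, 216 and 217 with compound 1. SERPINA1 was closer between controls, 427 and 331, against 855, 858, 929 and 965. In the serpin and plasminogen list 4 of 16 were higher and none lower (median 0.25), the others being PLAT, tissue plasminogen activator (0.94, SE 0.13), and SERPINE2, an inhibitor of thrombin and plasminogen activators (0.72, SE 0.11).

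**Figure D3:**
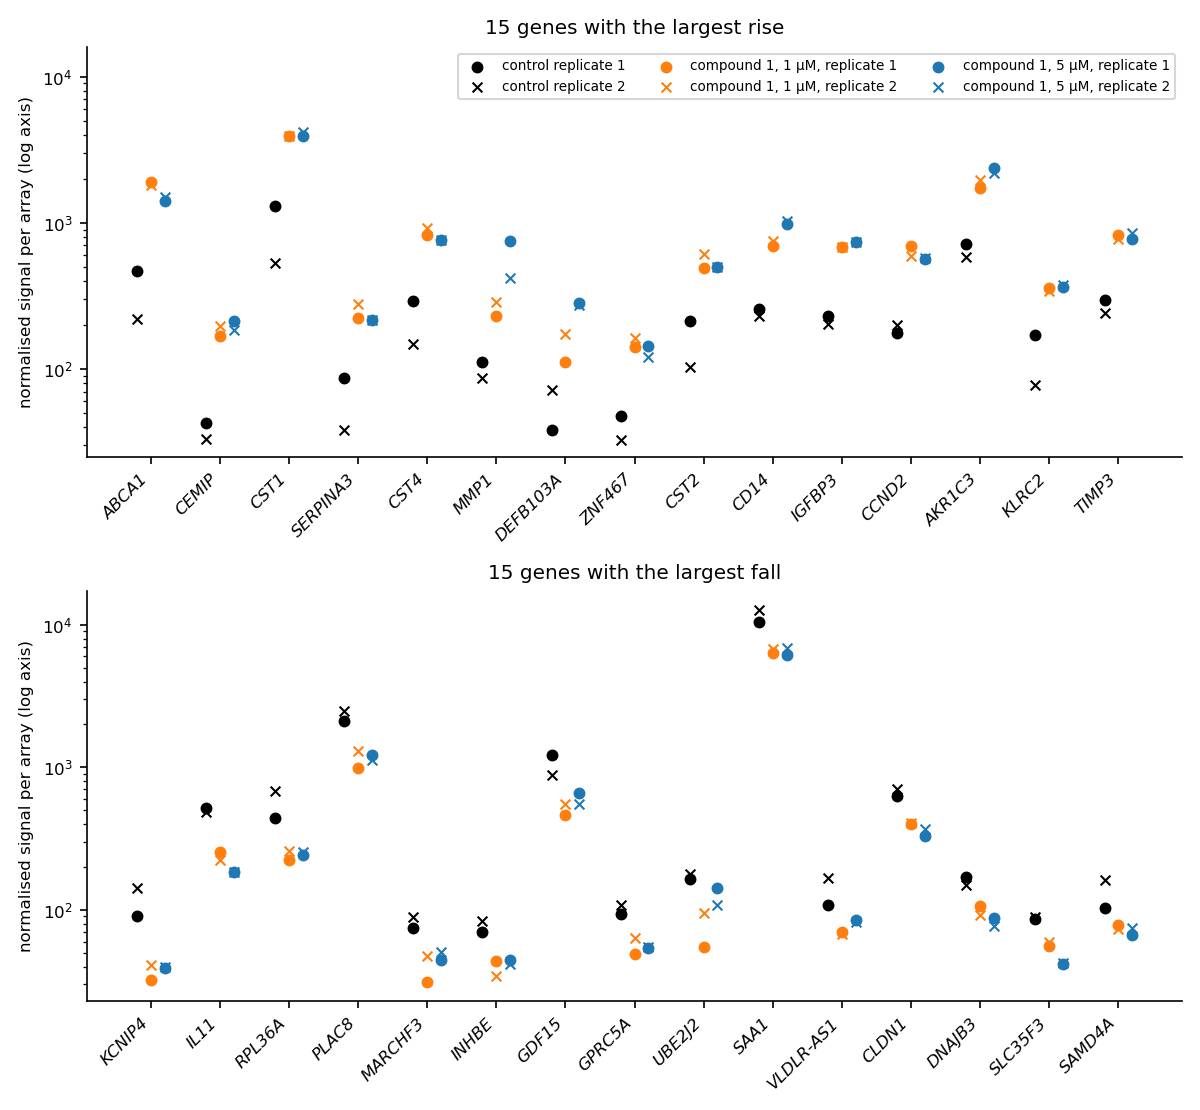
Normalised signal on each of the 6 arrays (log axis) for the 15 genes with the largest rise and the 15 with the largest fall among genes past an adjusted p of 0.05 with no overlap of the groups; circles and crosses are replicates 1 and 2, black the control, orange 1 μM and blue 5 μM of compound 1. For ABCA1, CST1, SERPINA3, CST2 and KLRC2 control replicate 2 lies well below control replicate 1, whereas for CD14, IGFBP3 and CCND2 the 2 control arrays lie close together.

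The promoters of the genes that stayed past the test against either control array differ among themselves, and 6 are shown. Of these, 4 have the largest rise among those with TATAAA near the start. CD14 and IL11 stand for a rise and a fall that varied little with the control array. The sequences are the 250 bases before the annotated start on the gene's strand, from RefSeq on GRCh38.p14, and capitals mark the motif found. For CD14 the table's start lies inside the annotated gene, which extends further upstream to position 140633701, so its sequence belongs to an inner start. TATAAA, the core of a TATA box, was searched on both strands, as was TGANTCA, the site of AP-1 factors. Only these strings were sought, so variants such as the tatataa near the end of the IL11 sequence were neither marked nor counted. The first 4 hold TATAAA 29 to 31 bases before the start on the gene's strand, and CD14 and IL11 hold TGAGTCA 223 and 96 bases before it. The coordinates are chr9:104928156-104928405 on the minus strand for ABCA1, chr15:80779120-80779369 on the plus strand for CEMIP, chr10:5196587-5196836 on the plus strand for AKR1C4, chr3:172523431-172523680 on the minus strand for TNFSF10, chr5:140633176-140633425 on the minus strand for CD14 and chr19:55370464-55370713 on the minus strand for IL11.
ABCA1: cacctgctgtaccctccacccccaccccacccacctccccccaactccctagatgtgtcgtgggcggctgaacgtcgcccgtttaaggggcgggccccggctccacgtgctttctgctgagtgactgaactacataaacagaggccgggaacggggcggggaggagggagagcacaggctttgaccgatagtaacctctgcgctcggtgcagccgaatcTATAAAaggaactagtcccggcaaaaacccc
CEMIP: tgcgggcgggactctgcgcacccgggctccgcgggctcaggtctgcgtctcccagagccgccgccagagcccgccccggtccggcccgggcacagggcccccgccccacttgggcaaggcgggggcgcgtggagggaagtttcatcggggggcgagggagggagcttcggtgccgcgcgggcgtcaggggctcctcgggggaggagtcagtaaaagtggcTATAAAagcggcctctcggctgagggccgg
AKR1C4: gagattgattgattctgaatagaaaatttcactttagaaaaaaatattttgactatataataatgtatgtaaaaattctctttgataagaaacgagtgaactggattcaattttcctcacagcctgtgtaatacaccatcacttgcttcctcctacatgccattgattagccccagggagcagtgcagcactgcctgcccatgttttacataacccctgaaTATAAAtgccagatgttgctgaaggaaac
TNFSF10: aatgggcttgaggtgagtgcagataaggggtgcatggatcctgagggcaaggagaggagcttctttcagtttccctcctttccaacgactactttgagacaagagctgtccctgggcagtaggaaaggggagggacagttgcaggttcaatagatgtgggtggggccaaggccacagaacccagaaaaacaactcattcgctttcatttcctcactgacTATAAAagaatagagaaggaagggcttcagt
CD14: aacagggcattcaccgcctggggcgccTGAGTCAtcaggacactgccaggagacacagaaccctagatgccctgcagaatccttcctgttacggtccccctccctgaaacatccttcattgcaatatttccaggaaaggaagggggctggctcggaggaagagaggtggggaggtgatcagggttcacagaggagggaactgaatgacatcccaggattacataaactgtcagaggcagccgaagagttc
IL11: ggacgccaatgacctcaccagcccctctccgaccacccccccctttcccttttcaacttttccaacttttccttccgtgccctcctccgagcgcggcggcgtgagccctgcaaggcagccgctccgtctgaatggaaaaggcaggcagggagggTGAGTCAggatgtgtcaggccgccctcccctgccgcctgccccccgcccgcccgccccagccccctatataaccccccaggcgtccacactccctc
Of the 85 genes higher against either control, 59 had promoters in the table, 80 in number, and 7 of the 80 (8.75%) held TATAAA 25 to 35 bases before the start on the gene's strand, those of ABCA1, CEMIP, AKR1C4, TNFSF10, MUC1, PTGS2 and CPA4. The share was 1.66% over the 12665 promoters of all genes tested and 2.17% over the 35116 promoters of the table. Over the promoters of all 520 genes called higher it was 3.7% (24 of 648), and over those of the genes called lower 1.87% (7 of 375). TGANTCA stood in 8 of the 80 (10%), in 4.52% of promoters of genes tested and in 6.57% of the table. These matches describe the letters only and were not tested. AKR1C4, MUC1, PTGS2 and CPA4 were looked up after their values were seen, except MUC1, which belongs to a list.

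CD14, IGFBP3 and CCND2 had the smallest standard errors among the 15 largest rises. CD14, the co-receptor that hands lipopolysaccharide to Toll-like receptor 4, had 259 and 231 in the control, 699 and 756 at 1 μM and 986 and 1027 at 5 μM (log2 1.81, SE 0.11, adjusted p = 2.63e-05). IGFBP3, a carrier of insulin-like growth factors that also restrains their action at the cell, had 232 and 204 in the control and 686, 680, 740 and 734 with compound 1 (1.71, SE 0.11). CCND2, the gene of cyclin D2, had 177 and 200 in the control and 699, 590, 562 and 571 with compound 1 (1.68, SE 0.11, adjusted p = 2.69e-05). For these 3 genes the values against the single control arrays differed by 0.17 to 0.19 on the log2 scale, and each was measured by 2 probes that both passed. TLR4 itself rose by 0.46 (SE 0.12, adjusted p = 0.0445), or 0.34 against control replicate 1 and 0.58 against control replicate 2. It did not pass at 1 μM or at 5 μM alone (adjusted p = 0.0982 and 0.0905). DEFB103A, a beta-defensin with an identical copy gene that the probe cannot separate, rose by 1.90 (SE 0.23). In the list of CD14, Toll-like receptors and antimicrobial peptides 3 of 10 tested were higher and none lower. For DEFB103A control replicate 2 was the higher control array, with 38.1 and 72.1 in the control and 111, 173, 284 and 272 with compound 1.

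MMP1, interstitial collagenase, had 112 and 86.0 in the control, 232 and 287 at 1 μM and 755 and 420 at 5 μM (log2 1.96, SE 0.26, adjusted p = 0.00164). Its 2 arrays at 5 μM were the farthest apart among the 15 largest rises, and it was the only one of the 15 largest rises that missed the test against control replicate 1 alone (adjusted p = 0.0519). TIMP3, a matrix-bound inhibitor of metalloproteinases, had 298 and 242 in the control and 820, 774, 774 and 850 with compound 1 (1.58, SE 0.12, adjusted p = 4.08e-05). Proteases and inhibitors of the list thus rose together: 6 of 16 were higher and none lower (median 0.31), the others being ADAM8 (0.99), ADAM19 (0.50), TIMP2 (0.49) and TIMP1 (0.45). With control replicate 1 alone only TIMP3 of these passed.

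Genes of the extracellular matrix rose in part. In the list of collagens and matrix proteins 8 of 21 tested were higher and none lower (median 0.28), and 5 of the 8 passed against control replicate 1 alone. TGFBI, an adhesive matrix protein induced by TGF-beta, had 1659 and 1389 in the control and 3917, 4102, 3462 and 3410 with compound 1 (1.29, SE 0.12, adjusted p = 0.000165). COL6A3, a chain of the beaded collagen VI, was not detected on the control arrays (38.4 and 38.0) and had 76.8, 80.5, 79.5 and 82.9 with compound 1, at least 1.54-fold higher. Its partner chain COL6A1 rose by 1.10 (SE 0.16), COL7A1, the anchoring fibril collagen, by 0.79 (SE 0.11) and COL5A1 by 0.76 (SE 0.10). Of the integrins, receptors for such matrix, 5 of 12 were higher by their brightest probe and none lower (median 0.35), with ITGB4, whose probes disagree, among the 5. ITGA1, the collagen-binding alpha 1 chain, was not detected in the control and rose by at least 1.96-fold (log2 1.45, SE 0.14), and it alone of the 5 passed against control replicate 1 alone. ITGB4 had 3 tested probes, 2 higher (1.14 and 1.07) and 1 lower (-0.49), and no direction is given for that gene. ITGA2 rose by 0.80 (SE 0.14) and ITGA10 by 0.84 (SE 0.16).

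Genes of TGF-beta signalling gave a mixed set. LTBP2, a latent TGF-beta binding protein of microfibrils, rose by 1.10 (SE 0.13), PMEPA1 and ID1, a feedback inhibitor and a transcriptional target of the pathway, by 0.92 (SE 0.14) and 0.89 (SE 0.15) with their brightest probes, and the co-receptor TGFBR3 by 0.70 (SE 0.12). The second probes of PMEPA1 and ID1 did not pass (0.31 and 0.25). TGFB2, the ligand, had 186 and 176 in the control and 141, 123, 125 and 127 with compound 1, a fall of 0.49 (SE 0.12, adjusted p = 0.0306) that passed against neither control array alone (adjusted p = 0.156 and 0.0886). In all, 6 of 23 tested were higher and 1 lower (median 0.19), and 1 member, LTBP2, passed against control replicate 1 alone.

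Of the 17 EMT regulators 4 were tested, of which CDH11, a mesenchymal cadherin, and SNAI2 rose by 1.08 (SE 0.14) and 0.59 (SE 0.12). A second SNAI2 probe did not pass (0.44, adjusted p = 0.132). CDH1, SNAI1 and ZEB1, which mark the epithelial state or repress it, were not detected on any of the 6 arrays and gave no test. Of 18 epithelial junction and apical genes 3 were higher and 1 lower. MAL2, an apical transport protein, was undetected in the control (32.1 and 30.1) and had 74.1 and 64.9 at 1 μM and 97.1 and 122 at 5 μM, at least 1.67-fold higher. CLDN1, a tight-junction protein, had 629 and 709 in the control and 400, 405, 331 and 369 with compound 1, a fall of 0.83 (SE 0.12, adjusted p = 0.00359), with an adjusted p of 0.0687 against control replicate 1 alone. Genes named for the epithelial and the mesenchymal state therefore both appear among the rises.

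CD24, a surface protein of luminal breast cells, and CD44, its counterpart on mesenchymal and stem-like cells, were named because the study sorted cells by them. CD24 had 98.7 and 107 in the control and 166, 143, 143 and 162 with compound 1. No array overlapped, and the rise was 0.58 (SE 0.15, adjusted p = 0.0402), past the test with all arrays but not with either control array left out (adjusted p = 0.185 and 0.124). A second CD24 probe was not detected. CD44 had 7242 and 7204 in the control and 9045, 8703, 7661 and 8652 with compound 1 and did not pass (0.23, SE 0.10, adjusted p = 0.177). Of 11 tested luminal breast genes 3 were higher, CD24, MUC1 (1.20, SE 0.16), a membrane mucin, and CA12 (1.16, SE 0.13), a carbonic anhydrase, and the latter pair passed against either control. Of 3 MUC1 probes 2 passed and the third did not (-0.15, adjusted p = 0.646). Of 22 stem cell surface and ALDH genes 8 were higher and none lower (median 0.51), among them ALDH3A1 (1.28, SE 0.12), NES (0.77), JAG1 (0.69) and ALDH3A2 (0.64; 2 of its 3 probes passed). The median of this list was 0.23 against control replicate 1 and 0.63 against control replicate 2. ALDH3A1, an aldehyde dehydrogenase, had 80.4 and 68.8 in the control, 149 and 165 at 1 μM and 203 and 216 at 5 μM, and was the only member of that list that passed against control replicate 1 alone.

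Sterol export genes were led by ABCA1. ABCG1, a second cholesterol exporter, rose by 1.18 (SE 0.24), NR1H3, the oxysterol receptor LXR-alpha that drives both exporters in many cells, by 0.50 (SE 0.10), MYLIP, an LXR target that degrades the LDL receptor, by 0.60, and NPC1 by 0.40. SCARB1, the HDL receptor, fell by 0.65 (SE 0.15). Thus 5 of 12 were higher and 1 lower (median 0.34). Among 26 genes of sterol and fatty acid synthesis 1 was higher, SCD (1.16, SE 0.26), and 1 lower, EBP (-0.46, SE 0.13). The synthesis counts lie near the shares over all genes, 4.83% higher and 3.07% lower. ABCG1 and SCD had control arrays far apart. ABCG1 had 84.9 and 40.2 in the control against 116 to 159 with compound 1. SCD had 2291 and 1039 against 2834 to 4202. Of this pathway only ABCA1 passed against control replicate 1 alone.

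Aldo-keto reductases, which reduce steroids, prostaglandins and xenobiotic carbonyls, rose from neighbouring genes on chromosome 10. AKR1C3 had 714 and 583 in the control, 1729 and 1972 at 1 μM and 2388 and 2187 at 5 μM (log2 1.67, SE 0.12, adjusted p = 4.08e-05). AKR1C2 was not detected in the control and rose by at least 1.97-fold (log2 1.53, SE 0.18), and AKR1C4, named after its value was seen, by 1.41 (SE 0.17). The 3 are near copies, and their probes may not separate them. All 3 passed against either control. In the NRF2 list to which the aldo-keto reductases belong, 4 of 21 were higher and none lower, with a median of -0.01; the others were ABCC3, an organic anion exporter (1.00), and NQO1, a quinone reductase (0.49). MT1F, a metallothionein, rose by 1.22 (SE 0.10) and MT1X by 0.42 (SE 0.10), 2 of 7 tested.

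Interferon-stimulated genes rose in part, 7 of 34 with none lower (median 0.32). Over all genes 4.83% were higher and 3.07% lower, the background for this list and for the MHC genes. MX1, a GTPase that traps viral nucleocapsids, had 332 and 275 in the control and 675, 571, 625 and 653 with compound 1 (1.06, SE 0.12, adjusted p = 0.000917). GBP2 rose by 0.96 (SE 0.11) and IFIT2 by 0.77 (SE 0.12), and these 3 were the members that passed against control replicate 1 alone. This list had nearly equal medians against the single control arrays, 0.32 and 0.34. Of 25 MHC genes 5 were higher, led by HLA-B (0.87, SE 0.15), whose probe may bind other class I genes, and CD74 (0.48, SE 0.10; 2 of its 3 probes passed), the class II invariant chain, and none of the 5 passed against control replicate 1 alone. TNFSF10, the death ligand TRAIL, had 59.5 and 38.8 in the control and 117, 117, 137 and 141 with compound 1 (1.41, SE 0.16, adjusted p = 0.000812).

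Hypoxia and glycolysis genes rose in part, with wide gaps between the control arrays. Of 32 tested 6 were higher and none lower, but 1 passed against control replicate 1 alone. NDRG1, a stress-induced gene, had 2532 and 1088 in the control and 4639, 4825, 3855 and 3871 with compound 1, a log2 difference of 0.76 against control replicate 1 and 1.97 against control replicate 2. SLC2A3, a glucose transporter, had 1105 and 658 in the control against 1508 to 2011, and ALDOC, an aldolase, 267 and 134 against 322 to 429. In each of these genes control replicate 2 was the lowest of the 6 arrays. The genes past the test with the largest gap between the control arrays were CST1 (1.30 on the log2 scale), NDRG1 (1.22), C1QTNF1 (1.20), SERPINA3 (1.18) and SCD (1.14), and in all 5 control replicate 2 was the lower.

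**Figure D4:**
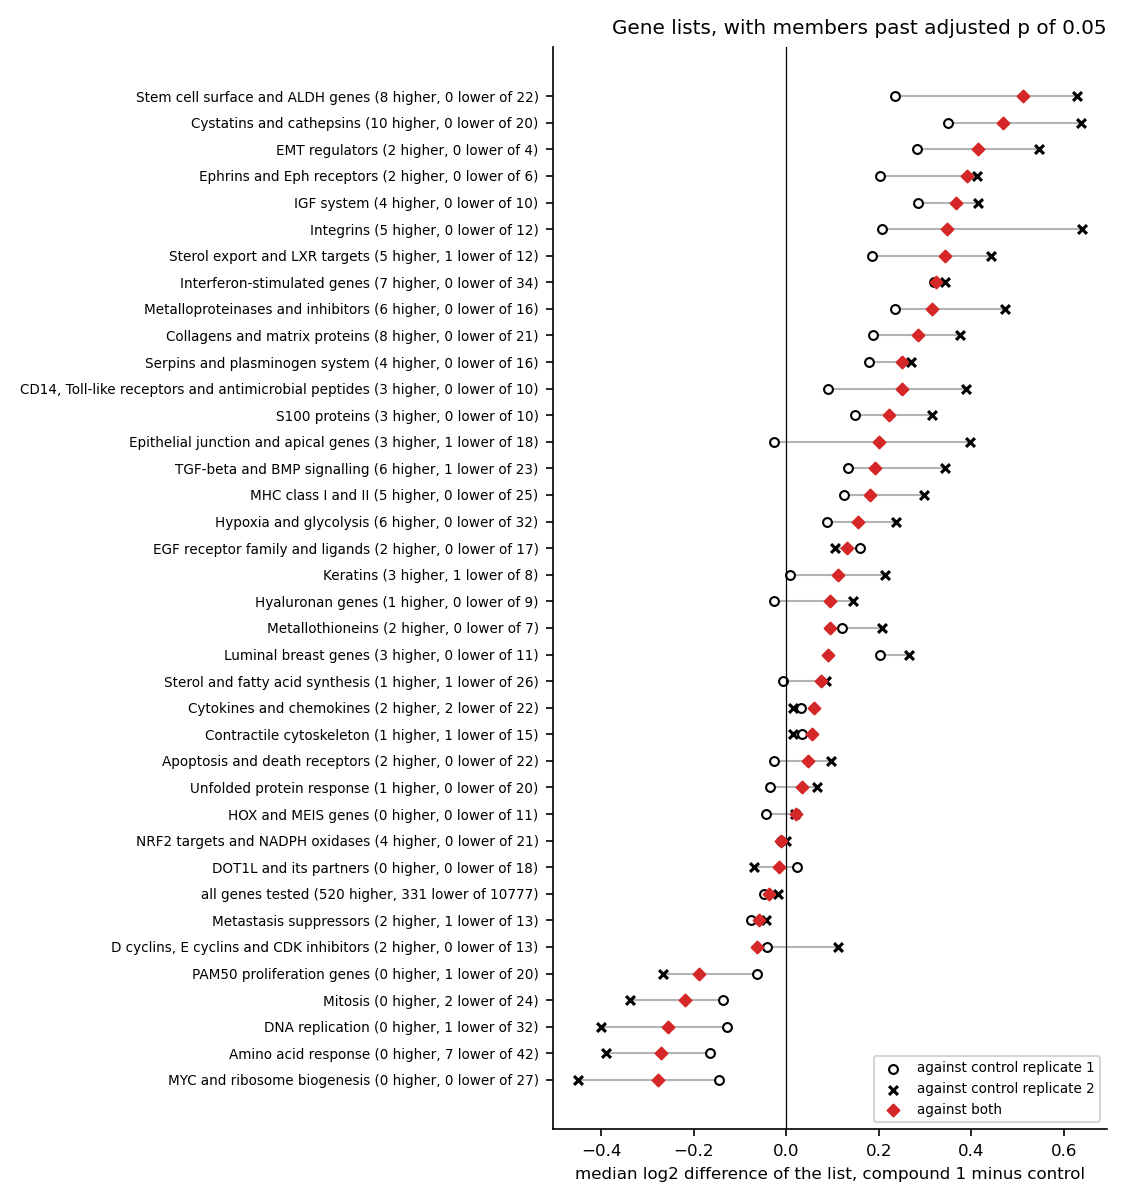
Median log2 difference between compound 1 and control for the tested genes of each list, against control replicate 1 (open circles), control replicate 2 (crosses) and both (red diamonds), with the number of members past an adjusted p of 0.05. The stem cell surface and ALDH list (median 0.51) and the cystatin list (0.47) lie highest and the MYC and amino acid response lists lowest (-0.28 and -0.27) against both control arrays, whereas against control replicate 1 alone the cystatin (0.35) and interferon (0.32) lists lie highest and the stem cell list at 0.23; most lists lie farther from 0 against control replicate 2.

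The falls were smaller and fewer stayed past the test against either control. KCNIP4, a calcium-binding subunit of potassium channels, had 90.2 and 143 in the control and 32.1, 41.0, 39.4 and 39.6 with compound 1, where it was not detected, a fall of at least 2.48-fold (log2 -1.58, SE 0.21, adjusted p = 0.00174). IL11, a cytokine of the interleukin-6 family that acts on bone and stroma, had 523 and 485 in the control, 257 and 223 at 1 μM and 184 and 185 at 5 μM (-1.26, SE 0.11, adjusted p = 0.000112). Against the single control arrays IL11 gave -1.32 and -1.21. SAA1, an acute-phase apolipoprotein, had 10545 and 12759 in the control and 6365, 6739, 6122 and 6829 with compound 1 (-0.83, SE 0.11), and 2 of its 3 probes passed. Of the 15 largest falls 5 passed against each control array alone, KCNIP4, IL11, SAA1, DNAJB3 and SLC35F3, compared with 14 of the 15 largest rises.

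The other large falls lost the call with control replicate 1 alone. PLAC8 had 2123 and 2501 in the control against 982 to 1306 (adjusted p = 0.00228 with both control arrays), with an adjusted p of 0.0558 in that fit. GDF15, a stress-induced cytokine of the TGF-beta family, had 1217 and 879 in the control and 460, 551, 662 and 558 with compound 1 (-0.90, SE 0.19) and passed against neither control alone (adjusted p = 0.0642 and 0.103). RPL36A, a ribosomal protein gene with many processed copies that the probe may also bind, fell by 1.16 (SE 0.18). INHBE, the inhibin beta E chain, fell by 0.91 (SE 0.13) and was detected on 1 of the 4 compound 1 arrays. UBE2J2 had the widest spread over doses among the 15 falls, with 54.6 and 94.7 at 1 μM and 143 and 109 at 5 μM against 164 and 179 in the control, and its second probe did not pass (-0.26, adjusted p = 0.436).

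Genes of amino acid supply and the ATF4 response fell in part, with 7 of 42 lower and none higher (median -0.27). TRIB3, a pseudokinase induced by ATF4 and DDIT3, had 2797 and 4170 in the control and 1922, 2036, 2266 and 2315 with compound 1 (-0.68, SE 0.15, adjusted p = 0.0226). SLC7A11, the cystine importer, fell by 0.75 (SE 0.18), MTHFD1, a folate enzyme, by 0.50 (SE 0.12) and DDIT3 by 0.48 (SE 0.12). None of the 7 passed against control replicate 1 alone, while 12 members passed against control replicate 2 alone. Among cytokines and chemokines 2 of 22 were higher, CXCL16, which was not detected in the control and was at least 1.04-fold higher, and IL24 (0.59, with a second probe at 0.09 that did not pass), and 2 lower, IL11 and IL1A (-0.49, SE 0.12).

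In the PAM50, replication and mitotic lists 1 or 2 members each were called lower, a share not below the 3.07% of all genes. None was called higher, where 4.83% of all genes were. Of 20 tested PAM50 proliferation genes 1 was lower, CDC6, which loads the replicative helicase (-0.51, SE 0.13, adjusted p = 0.0377), and none was higher (median -0.19). Among 32 replication genes 1 was lower, POLE (-0.59, SE 0.14), and among 24 mitotic genes 2, KIF23 (-0.41) and ZWINT (-0.47), each with a second probe that did not pass (0.09 and -0.25). The replication and mitotic lists had medians of -0.26 and -0.22, beside -0.04 over all genes. Their medians were -0.13 and -0.14 against control replicate 1, and -0.40 and -0.34 against control replicate 2. All 4 compound 1 arrays lay below both control arrays for 17 of the 32 replication genes and 10 of the 24 mitotic genes, beside 2172 of all 10777 genes. Of the cell-cycle genes that the study followed by qPCR, CCNB1 had 612 and 641 in the control and 676, 671, 825 and 611 with compound 1 (0.14, SE 0.14, adjusted p = 0.568), groups that overlapped. By their brightest probes CDC20, UBE2C, PTTG1, CCNE1 and CENPF had log2 fold changes of -0.21, -0.21, -0.20, -0.22 and -0.05, with adjusted p from 0.206 to 0.884. Second probes of UBE2C and PTTG1 gave larger falls that did not pass either (-0.40 and -0.32, adjusted p = 0.0840 and 0.0919). MYBL2 was not detected. CDKN1A, the p21 inhibitor of cyclin-dependent kinases, rose by 0.57 (SE 0.11, adjusted p = 0.0114). The list of MYC and ribosome biogenesis genes had no call among 27, with a median of -0.28, or -0.15 and -0.45 against the single control arrays. With control replicate 2 as the only control 8 of the 27 were lower, and for 14 all 4 compound 1 arrays lay below both control arrays.

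DOT1L and the lists of its partners and of HOX and MEIS genes held no call against both control arrays. DOT1L had a normalised signal of 44.1 and 40.9 in the control, undetected on both arrays, and 45.1, 47.1, 44.9 and 51.3 with compound 1, detected on 3 of 4 (0.15, SE 0.13, adjusted p = 0.529). The compound blocks the enzyme and not its transcript, so this value does not report on its action. No member passed among the 18 tested genes of the list of DOT1L and its partners (median -0.02; log2 range -0.20 to 0.15) or among the 11 tested HOX and MEIS genes (0.02; -0.36 to 0.34), while 22 of 33 HOX and MEIS genes were on the array. With control replicate 2 as the only control 2 HOX and MEIS genes were higher.

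No difference between the doses passed the test. At 1 μM 947 probes were called (5.28%; 523 higher, 424 lower) and at 5 μM 389 (2.17%; 283 higher, 106 lower), with 283 called at both. All 1264 probes of the pooled comparison had the same sign at both doses, and 357 of them were called at neither dose alone. The equal signs add little, since the probes were picked by the mean of both doses against the same control arrays. Between 5 and 1 μM directly, a comparison without control arrays, limma called no probe, with 1260 of 17922 at an unadjusted p below 0.05. The median 95% interval of a single dose reached 0.34 to either side before adjustment over all probes. Dose differences well above that size also went uncalled, so the missing calls do not show that the doses act alike. The largest dose differences among the 15 largest rises were in MMP1 (log2 difference 1.13, SE 0.30, adjusted p = 0.55) and DEFB103A (1.00, SE 0.26, adjusted p = 0.55), neither of which passed. CD14 (0.47) and MAL2 (0.65) also lay higher on both arrays at 5 μM than on both at 1 μM, likewise without a call.

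Compound 2 and siRNA-1 were measured against the same 2 control arrays, at other doses and, for siRNA-1, after 7 days, so the values stand side by side without a comparison. The siRNA-1 cells were also transfected, and the series holds no arrays of mock-transfected cells. Effects of siRNA-1 on DOT1L, of transfection and of time therefore cannot be told apart in its values, their signs included. With compound 2 (2 and 10 μM pooled) and siRNA-1, in this order, the log2 fold change was 2.51 and 1.27 for ABCA1, 2.49 and 3.79 for CEMIP, 2.27 and 2.90 for CST1, and 1.41 and 0.77 for CD14. It was 1.67 and -2.67 for CCND2, 1.44 and -1.54 for MMP1, and 1.97 and -0.50 for SERPINA3. Among the falls it was -1.06 and -2.15 for IL11, -0.68 and -3.55 for CLDN1 and -0.86 and -3.25 for GDF15. For CCND2 and MMP1 the siRNA-1 value had the opposite sign to both compounds and passed the limma test (adjusted p = 4.41e-07 and 0.00629). For SERPINA3 the siRNA-1 value was also negative but did not pass (adjusted p = 0.331), so its sign is open.

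Defining genes of the line were detected, 9 of the 9 on the array on all 6 arrays, with a summed signal of 51055 to 56619 in the control and 63237 to 69341 with compound 1. Of 10 luminal markers 4 were detected on all 6 arrays and 5 on none, of 9 leukocyte markers none on all 6 and 6 on none (summed signal 358 to 396 and 344 to 383), and of 7 endothelial markers 1 on all 6 and 5 on none. In bulk RNA a higher signal may come from more RNA per cell or from more cells that express the gene, and these cannot be told apart. The 6 arrays detected 34.0% to 36.7% of probes at p below 0.05.

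SPANX genes, cancer-testis genes of the X chromosome that are nearly identical, were noticed after their values were seen. SPANXA2 had 13553 and 14278 in the control and 9219, 8394, 7687 and 8437 with compound 1 (-0.72, SE 0.10, adjusted p = 0.00273), and SPANXC, SPANXB1 and SPANXD fell by 0.70, 0.70 and 0.76, while SPANXA1 was dim and did not pass (0.11). SPANXA2 and SPANXC were among the 8 genes lower against each control array alone.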

How the data were processed

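RNA of MDA-MB231 cells was hybridised to 12 arrays, and the 6 arrays of control and compound 1 enter the comparison. The authors deposited intensity values, the linear bead signals that BeadStudio exports after background subtraction (version not given in the sources used here), and the detection p-values, also deposited by the authors, come from each array's negative control beads. The authors also deposited log2 values of these signals in the series matrix, which served as an alternative. Of 47324 lines 2 were damaged. The detection p-values stand in another line order than the signals and were assigned by rank within each array.

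Signals were corrected with normexp (limma 3.58.1 in R 4.3.3, offset 16), taken to log2 and shifted so that every array had the same median over 11809 probes, those with a detection p under 0.01 throughout the 12 arrays. The test covered 17922 probes (13797 with 1 symbol) whose detection p was under 0.05 on both arrays of any group. All 12 arrays entered the linear model, which held 1 mean for each group (6 residual degrees of freedom). The mean of both doses was set against the control, and p-values were adjusted by Benjamini and Hochberg over all tested probes. "Not detected" means a detection p of 0.05 or more, and "at least" folds take the lowest detected signal as the floor. The median 95% interval reached 0.30 to either side on the log2 scale, and the number of arrays limits the precision. The members and gene lists were chosen with earlier results of these data known. Genes were named by rule: the 15 largest rises and falls without overlap of the groups, up to 4 members per list with the smallest adjusted p, genes the study followed, and the 5 with the largest gap between control arrays. Other genes are named as chosen after their values were seen or as members of a described list. The list of 47322 probes had 30113 with 1 symbol, 8 with several and 17201 with none. Code was tested on simulated data. Promoters came from RefSeq (GRCh38.p14). Plots used Python 3.11.15 and matplotlib 3.10.9.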

Additional observations from a re-analysis of the deposited data

Results flagged for a closer look

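Among the 127 named genes, 10 had 1 of the 4 compound 1 arrays far from the other 3 on the log2 scale. The measure was Dixon's 95% limit for the gap to the nearest array as a share of the range. Chance gives about 1 in 20 genes, so several of the 10 would appear without any fault of an array. The share of the range was 0.966 for CST2 and 0.840 for SERPINA3, both through a high replicate 2 at 1 μM. It was 0.885 for SNAI2 and 0.894 for ALDH3A2, through a high replicate 1 at 1 μM. It was 0.842 for KCNIP4, 0.908 for AKR1C2, 0.961 for SCNN1A, 0.864 for TAPBP, 0.895 for SCARB1 and 0.833 for S100A3. In each of these genes all 4 compound 1 arrays stayed on the same side of both control arrays. All were genes past the test, and this held for 844 of the 851 called genes, so it adds nothing about these 10.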

How the results depend on the processing

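With all arrays kept, 962 to 1505 probes were called under quantile normalization, centring on all probes, an offset of 50, the 3 other choices of detection filter, compound 1 as 1 group and the replicate block. Other settings gave fewer: 692 without background correction (450 higher, 242 lower), 567 with the series matrix values (98 lower), 530 with only the 6 arrays of control and compound 1 (358 higher, 172 lower), 570 with these as 2 groups (376 higher, 194 lower) and 153 with the unfiltered series matrix (117 higher, 36 lower). Centring on all probes gave 1129 higher and 162 lower. Without each array in turn the counts were 136 to 1667 called, 108 to 939 higher and 28 to 728 lower, the lowest without control replicate 2 and the highest without control replicate 1. Probes called over 4-fold numbered 4, and 46 without background correction, 2 with an offset of 50 or with detection on all 12 arrays, 8 with centring on all probes, 54 with the series matrix, 90 with it unfiltered, and 3 to 10 without each array. At 1 μM 505, 494, 275 and 87 probes were called without background correction, with the series matrix, with 6 arrays only and with the unfiltered matrix, and 86 to 1553 without each array. At 5 μM the same settings gave 249, 215, 175 and 112, centring on all probes 625, and leaving out each array 93 to 884. Between the doses 21 probes were called with the unfiltered series matrix and none under the other settings, at an unadjusted p below 0.05 for 1260 as reported. The cause of these shifts was not tested.

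Replicate differences of control, 1 μM and 5 μM correlated at -0.05, 0.07 and -0.03, so these values gave no sign of pairing by replicate number. Over all pairs of groups in the series they ran from -0.37 to 0.21. Such correlations cannot settle whether replicates of the same number were handled together. The replicate block gave 962 calls (555 higher, 407 lower), 767 at 1 μM and 317 at 5 μM. Of the 119 named genes past the test, 22 kept the call under every setting that kept all arrays, 72 without each array other than control replicate 2, and 40 without control replicate 2. No named gene changed direction past the test.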
